A study of Drosophila melanogaster with 4 samples.

Results

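The right arm of the third chromosome of Drosophila melanogaster, 3R, carried 3312 of the 14326 regions called as enriched for histone H3 monomethylated at lysine 4 (H3K4me1) in larval chromatin. The members are all regions of the deposited peak list that lie on 3R, taken without regard to width or score. That is 23.1% of its peaks, and 22.5% of all covered sequence. The series used chromatin immunoprecipitation followed by sequencing (ChIP-seq) and holds 2 H3K4me1 ChIP samples and 2 input samples, input being the DNA of chromatin taken without the antibody step. All samples came from wandering larvae of the third instar (L3) of the strain Y cn bw sp, of unknown sex. ChIP and input groups share 1 genotype. It carries y[1] and oc[R3.2] on its first chromosome. On the second it has Gr22b[1] and Gr22d[1], then cn[1] and CG33964[R4.2], and also bw[1] with sp[1]. The third bears LysC[1] and lab[R4.2], with MstProx[1], GstD5[1] and Rh6[1]. No treatment is labelled. The antibody was a purified rabbit polyclonal. The labels' protocols describe no dissection of the larvae and name no tissue, and the list holds no expression value against which the stage could be checked. It is not labelled whether replicates were collected separately.

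H3K4me1 is placed on nucleosomes at enhancers and beside active or poised promoters. In flies the methyltransferase Trithorax-related deposits much of it. Genes with long regulatory regions often carry it over wide stretches, and silent domains tend to lack it. Arm 3R is known for both Hox clusters, which specify identity along the body axis. The Antennapedia complex holds lab, pb, Dfd, Scr and Antp, and the bithorax complex holds Ubx, abd-A and Abd-B. In the gene table used here, which is of release 6 of the genome, all of them lie on 3R, as do the labelled allele genes MstProx, GstD5 and Rh6. The peaks are in FlyBase release 5 coordinates. Gene positions in that release were not used here, so no window or peak is assigned to a gene and no sequence is shown.

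The values are those of 1 peak list for the whole series. It has no value per sample and no read counts, so the depth is unknown, and the values are given as a description with no replicate error and no test. Spreads between windows are spreads along the arm, not between samples. Positions are counted from 1 on 3R, from the centromere end at low coordinates to the telomere end at high coordinates. The end of the last peak, at 27905042, was taken as the end of the arm.

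Peaks covered 4.92 Mb, or 17.6%, of 3R, at 119 peaks per Mb. Width had a median of 845 bp and ran between 200 bp and 19.8 kb, with the middle 50% of peaks between 397 and 1730 bp. The authors' peak score, whose scale is not stated, had a median of 32.9 and ranged from 6.11 to 468. Narrow peaks were numerous but contributed little sequence. Those under 500 bp were 1087 in number (32.8%) and supplied 7.17% of the covered bases. At the other end, the 169 peaks of 5 kb or wider (5.10%) supplied 27.3%. The 522 peaks from 2 to 5 kb were the class with the most covered sequence, 32.1% of the total.

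Score rose with width from class to class. The median score was 14.4 for peaks under 500 bp, 27.8 for those from 500 to 1000 bp, 56.5 from 1000 to 2000 bp, 111 from 2000 to 5000 bp and 202 for peaks of 5 kb or wider. Spearman's rho of width and score was 0.89 over the 3312 peaks. Both numbers come from the same peak caller, so rho is a description. The extremes of the 2 measures were different peaks, and none of the 5 highest scores belonged to any of the 5 widest peaks.

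The highest score on the arm, 468, belonged to a peak of 5.22 kb at 4878378 to 4883592, which ranked 151 by width. The next highest, 426 and 403, stood in the same 250 kb window, at 12031230 to 12039578 and at 12076273 to 12085457. The peaks at 2912733 to 2917986 and at 10473649 to 10480702 followed with scores of 372 and 365. High scores were not gathered in a few places: the 34 peaks in the upper 1% of scores on the arm lay in 29 different windows.

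The widest peak ran over 19.8 kb, from 25597802 to 25617595, and ranked 65 by score. The peaks at 12043611 to 12062250 and at 12099751 to 12118000 were 18.6 and 18.3 kb wide and flanked the high-scoring peak at 12076273. The next widest were 6204137 to 6222124, with 18.0 kb, and 13526431 to 13542843, with 16.4 kb. A single window, 12000001 to 12250000, thus held 2 of the 5 highest-scoring and 2 of the 5 widest peaks of 3R.

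Divided into 112 windows of 250 kb counted from position 0, the arm alternated between dense and sparse stretches. The median window was covered to 15.8%, the quartiles were 9.92% and 25.4%, and the extremes 0% and 46.0%. The mean was 17.6% ± 9.84 (SD over 112 windows), a coefficient of variation of 0.56. In 15 windows peaks covered more than 30%, and in 10 they covered less than 5%. The richest 33 windows, 29.5% of all, held at least 50% of the covered bases. The last window is 155042 bp long and was taken over its own length.

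**Figure D1:**
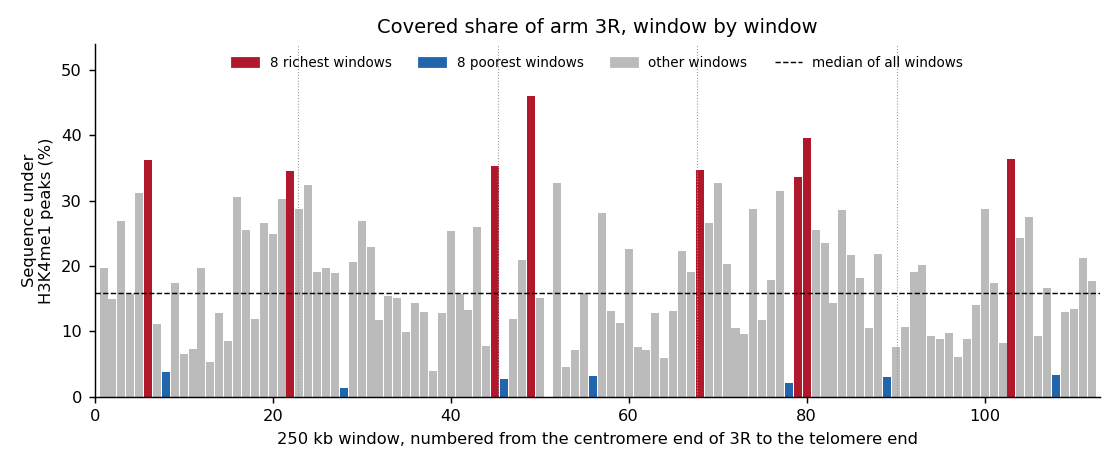
Share of sequence under H3K4me1 peaks (%, y axis) in each of the 112 windows of 250 kb on 3R, numbered from the centromere end (x axis), with the median of 15.8% dashed and the borders of 5 equal stretches dotted. Red bars mark the 8 richest windows (33.6% to 46.0%) and blue bars the 8 poorest (0% to 3.82%). Window 51 has no bar because it holds no peak. Red and blue bars are scattered along the arm, in places side by side.

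The richest window was 12000001 to 12250000, where 45 peaks with a mean width of 2.55 kb covered 46.0% of the sequence. Peaks of 5 kb or wider supplied 24.5 of these percentage points. The window at 19750001 to 20000000 reached 39.6% in another way, with 60 peaks in 23 joined regions, which are groups of peaks no more than 1000 bp apart, and 9.97 points from peaks of 5 kb or wider. It adjoins the window at 19500001 to 19750000, which had 33.6%, and these were the only adjacent windows among the 8 richest. At 25500001 to 25750000 peaks covered 36.4%, of which 17.4 points came from 4 peaks of 5 kb or wider.

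The window at 1250001 to 1500000, in the part of the arm near its centromere end, was covered to 36.2% by 50 peaks. Typical peaks there were wide, with a median of 1387 bp where all peaks of 3R had 845 bp. Only 1 of the 50 reached 5 kb, while 22 had a score in the upper 25% of the whole list, the most of the 8 windows. A like make-up was found at 11000001 to 11250000, with 35.3%, 54 peaks of a median 1561 bp and 20 such scores. The windows at 16750001 to 17000000 and 5250001 to 5500000 had 34.7% and 34.6%. In each of the 8 the longest stretch without a peak was between 26.0 and 43.9 kb.

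The poorest window, 12500001 to 12750000, held no peak at all. It lay 250 kb beyond the richest window and was followed by one covered to 32.7%. The window at 6750001 to 7000000 had 1.35%, from 4 peaks with scores up to 48.7. The window at 19250001 to 19500000 had 2.15%, from 8 peaks, and stood between windows of 31.4% and 33.6%. At 11250001 to 11500000 the share was 2.78%, from 14 peaks with a median width of 365 bp, next to the window of 35.3%.

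The remaining 4 of the poorest windows had few peaks, but some of those scored high. The window at 22000001 to 22250000 held 3 peaks, 1 of them with a score of 237, and was covered to 3.01%. The windows at 13750001 to 14000000 (3.23%), 26750001 to 27000000 (3.40%) and 1750001 to 2000000 (3.82%) had 6, 5 and 6 peaks, with best scores of 270, 176 and 117. In all, the 8 richest windows held 392 peaks and 15.1% of the covered bases of the arm, and the 8 poorest held 46 peaks and 1.00%. With no input reads in the list, absence of the mark and absence of placeable reads cannot be told apart in such windows.

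The ranking of windows depended on where the windows began. With the grid moved by 50% of a window, 5 of the 11 richest windows still overlapped one of the 11 richest of the moved grid, and 3 of the 11 poorest still overlapped one of the 11 poorest. Both moved windows that overlap a window lay above the median of 15.8% for all of the 8 richest, and both lay below it for 4 of the 8 poorest. That median is of the unmoved grid. The moved grid had a median of 17.2%, which the lower moved window for 11000001 to 11250000 equalled and did not exceed. The windows overlapping the richest one gave 38.5% and 22.5% on the moved grid, and those overlapping the window without a peak gave 12.9% and 5.62%. Ranked by number of peaks in place of covered share, 5 of the 11 richest and 8 of the 11 poorest windows stayed in those groups.

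Rich windows had more peaks and also wider ones. The 28 windows with the highest share (25.5% to 46.0%) carried 181 peaks per Mb with a mean width of 1725 bp, and the 28 with the lowest share (0% to 9.78%) carried 54.4 peaks per Mb with a mean width of 1101 bp. The ratios were 3.32 for peak density and 1.57 for mean width. Median widths were 980 and 684 bp, and median scores 37.0 and 27.8. In the richest 28 windows 7.12% of the peaks reached 5 kb, and in the poorest 28 windows 2.10% did. Across windows, Spearman's rho of covered share was 0.86 with the number of peaks (112 windows) and 0.44 with their mean width (111 windows with a peak). Number and mean width were almost unrelated to each other (rho = -0.016). Share is built from number and width, and all windows share the same list, so these values describe how it is made up.

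**Figure D2:**
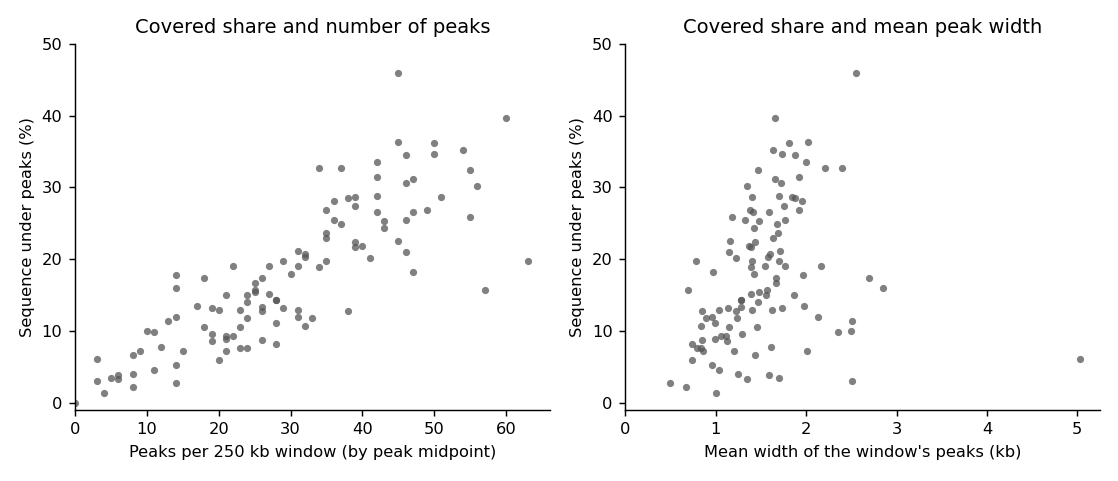
Share of sequence under peaks (%, y axis) in the windows of 250 kb on 3R, against the number of peaks in the window (left, 112 windows) and against the mean width of those peaks in kb (right, 111 windows with a peak). Each point is a window. Points rise more tightly with the number of peaks (rho = 0.86) than with their width (rho = 0.44).

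Some windows departed from that relation; they were singled out after their values were seen. The window with the most peaks, 6250001 to 6500000, had 63, but their median width was 499 bp and none reached 5 kb, so that it was covered to 19.7% and ranked 44. The window at 750001 to 1000000 was alike, with 57 peaks of a median 459 bp and a share of 15.7%. At 24000001 to 24250000, in contrast, 3 peaks had a mean width of 5.03 kb and covered 6.03%.

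Steps between neighbouring windows ranged from small to large. Pearson's r of the covered share of adjacent windows was 0.11 over 111 pairs, and 0.083 between windows 2 apart. With the grid moved by 50% of a window it was -0.029, and with windows of 100 kb, 500 kb and 1 Mb it was 0.12, 0.25 and -0.0038, so that its sign and size depended on the windows. The median step between neighbours was 9.02 percentage points, close to the SD of 9.84 over all windows. In 31 of the 111 pairs the step was under 5 points, and in 12 it was over 20 points. The largest, 32.7 points, separated the window without a peak from the next one. Next came a step of 32.5 points, between the window at 11000001 to 11250000 and the poorer one after it. Of the 8 poorest windows 2 touched one of the 8 richest, and none touched another of the 8 poorest.

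A few longer stretches stayed on 1 side of the median of 15.8%; they were picked out after their values were seen. Between 4500001 and 6750000, 9 windows in a row lay above it, with a mean of 26.1% and no window below 18.9%. Between 7750001 and 9750000, 8 windows in a row lay below it, with a mean of 12.0%. Another rich stretch of 6 windows ran from 16250001 to 17750000 (mean 25.9%), directly after a poor one of 5 windows from 15000001 to 16250000 (mean 9.35%). From 23250001 to 24750000, 6 windows averaged 9.47%. In all there were 53 such runs, of which 26 were a single window and 5 had 5 windows or more.

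The size of the contrast depended on the scale. In 279 windows of 100 kb the covered share ranged from 0% to 71.3%, 32 of them (11.5%) had no covered base, and 8 were covered to more than 50%. The most covered was 17400001 to 17500000, with 20 peaks. In 28 bins of 1 Mb the range narrowed to 7.73% to 31.5%, the richest being 5000001 to 6000000 and the poorest 13000001 to 14000000. The coefficient of variation was 0.85 at 100 kb, 0.56 at 250 kb, 0.42 at 500 kb and 0.31 at 1 Mb.

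From the centromere end to the telomere end, covered share followed no steady course. In 5 stretches of 5.58 Mb it was 19.4%, 17.3%, 15.0%, 21.0% and 15.4%. Spearman's rho of share and position was -0.068 over 112 windows, and it lay between -0.12 and -0.029 under the other window sizes, grids, score limits and measures tried. Inside each stretch, the SD between windows was between 8.24 and 11.0 percentage points.

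Stretch 3, the poorest, had the lowest peak density. It held 96.9 peaks per Mb, with a mean width of 1548 bp and a median of 808 bp, whereas stretch 4 held 133 per Mb with a mean of 1579 bp and a median of 932 bp. Stretch 3 also contained both the richest window of the arm and the window without a peak, and 4 of the 10 windows under 5%. Stretch 1 had a density close to that of stretch 4 (134 peaks per Mb), and each of them held 5 of the 15 windows over 30%. Stretch 2 had the lowest median width of the 5 stretches, 774 bp. Stretch 5 had 105 peaks per Mb and 1 window over 30%. Peaks of 5 kb or wider numbered 34, 27, 31, 47 and 30 in stretches 1 to 5, and the median score was 35.1, 29.5, 33.2, 35.8 and 32.4. Joined regions of 5 or more peaks numbered 44, 36, 28, 38 and 28, with no steady course either.

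Bins of 1 Mb showed the same uneven course. From the centromere end, the share was 19.3% and 20.6% in the first bins and dropped to 12.7% and 14.3% in the bins at 2000001 to 3000000 and 3000001 to 4000000. The next bins held 22.2% and 31.5%, the highest of the arm. In the middle, the bin at 12000001 to 13000000 had 23.4%, with 106 peaks of a mean width of 2208 bp, and the bin after it 7.73%, with 46 peaks of a mean 1681 bp. The bin at 15000001 to 16000000 was also low, with 8.39%. Between 16000001 and 22000000 every bin lay between 17.0% and 26.7%. Beyond that the bins stayed between 10.1% and 16.2%, apart from 21.6% at 25000001 to 26000000.

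**Figure D3:**
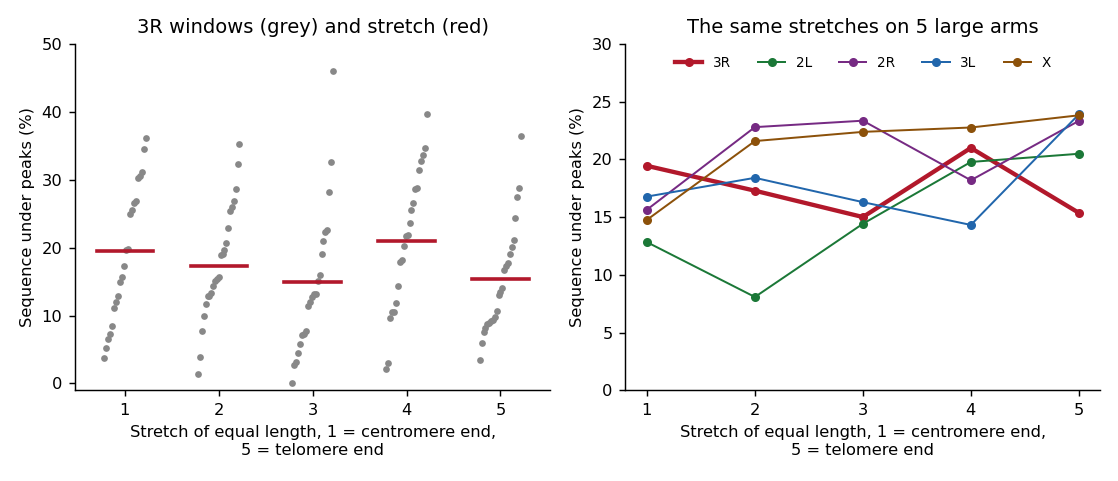
Share of sequence under peaks (%, y axes) in 5 stretches of equal length from the centromere end (1) to the telomere end (5). Left: the windows of 250 kb on 3R (grey points, sorted within a stretch) and the share of the whole stretch (red lines, 15.0% to 21.0%). Right: the same stretches on 3R (thick red line), 2L, 2R, 3L and X; on 3R stretch 1 is above stretch 5 (19.4% and 15.4%), and on each of the other arms it is below.

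With 5 Mb taken as the centromere end, that end was covered to much the same share as the rest of the arm. How near the first coordinates of the arm lie to the centromere itself was not tested. The nearest 5 Mb had 17.8% under peaks and the rest 17.6%, a difference of 0.26 percentage points. Windows averaged 17.8% ± 9.59 (SD, 20 windows) in the nearest 5 Mb and 17.6% ± 9.94 (SD, 92 windows) beyond it. Peak density was 124 and 117 per Mb, median width 872 and 830 bp, and median score 34.4 and 32.6. With 2 Mb in place of 5 Mb the difference was 2.49 points, with 10 Mb it was 1.11 points, and among the upper 25% of scores it was -0.19 points. The first 4 windows lay between 15.0% and 26.9%, and the last 4 between 13.0% and 21.2%.

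The ends of the arm differed in their outermost peaks. The first peak, at 1530 to 3956, was 2.43 kb wide with a score of 52.1, which ranked 1157 on the arm. The last, at 27894565 to 27905042, was 10.5 kb wide with a score of 335, which ranked 14. The windows that hold them were covered to 19.7% and 17.8%.

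Peaks on 3R stood close together in groups. Of the 3311 gaps between neighbouring peaks, 2022 (61.1%) were 1000 bp or shorter, and the median gap was 635 bp. Joined across such gaps, the peaks formed 1290 regions, or 46.2 per Mb, with a median length of 2398 bp and quartiles of 952 and 5389 bp. Peaks filled 86.7% of the joined length, which took up 20.3% of the arm. With gaps of 5000 bp joined as well, 688 regions were left.

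Single peaks were numerous among the regions, yet held a small part of the covered bases. A lone peak made up 529 regions (41.0%), with 15.0% of the covered bases and a median width of 781 bp. Groups of 2 to 4 peaks made up 587 regions (45.5%) and 45.1% of the covered bases. The 174 regions of 5 or more peaks (13.5%) held 39.9% of the bases and were a median of 10.8 kb long. The median of the best score in a region was 31.4 for lone peaks, 72.7 for groups of 2 to 4 and 135 for groups of 5 or more. A best score over more peaks is higher by construction. Peaks in groups had a median score of 33.7 and a median width of 852 bp, not far from lone peaks.

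The longest joined region, at 12026015 to 12085457, was 59.4 kb long. It consisted of 10 peaks that filled 93.7% of it and included the peaks with scores of 426 and 403. The region at 25587349 to 25632297 followed with 44.9 kb and 7 peaks, among them the widest of the arm. At 17447316 to 17488091 a region of 40.8 kb held 10 peaks. The regions at 7034588 to 7072533 and 26078718 to 26115809 had lengths of 37.9 and 37.1 kb, with 14 and 9 peaks. Length did not go with number alone: the region with the most peaks, singled out after its values were seen, had 21 peaks in 32.3 kb at 16399351 to 16431617. Regions of 20 kb or longer numbered 36 and held 18.0% of the covered bases.

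**Figure D4:**
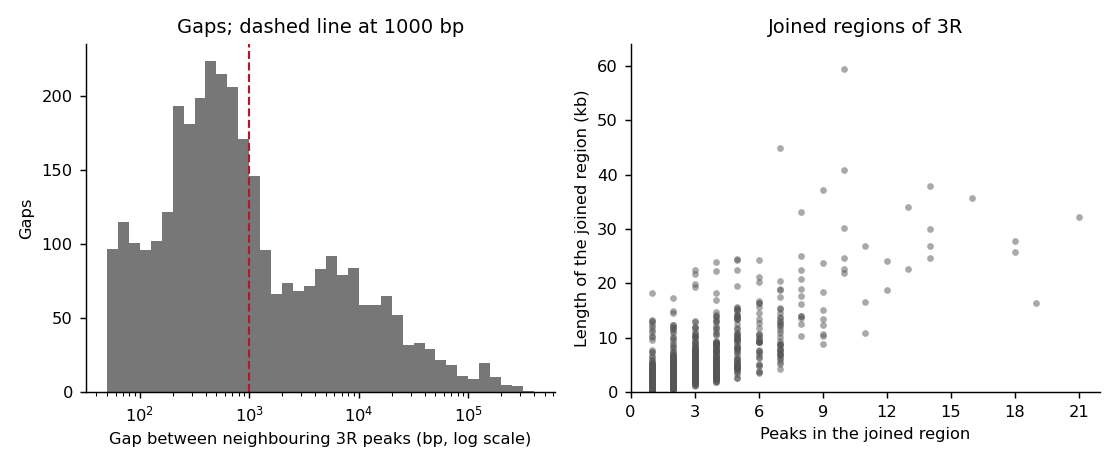
Left: number of gaps (y axis) by length in bp on a log scale (x axis) between neighbouring peaks of 3R, with the joining limit of 1000 bp dashed; 2022 of 3311 gaps lie at or below it. Right: length in kb (y axis) against number of peaks (x axis) of the 1290 joined regions, up to 59.4 kb with 10 peaks and up to 21 peaks in 32.3 kb.

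The sequence between the groups was taken up mostly by a small number of long gaps. Gaps of 1000 bp or less added up to 0.755 Mb, or 2.71% of the arm. The 49 gaps of 100 kb or longer were 1.48% of the gaps and took up 29.7% of the arm, and the 51 from 50 to 100 kb took up another 12.5%. Of the 49, stretches 1 to 5 held 8, 9, 12, 7 and 13. The longest ran over 360 kb, from 23790038 to 24150123. It was followed by 12480614 to 12796019, with 315 kb, which contains the window without a peak, and by 13650648 to 13946801, with 296 kb. The gaps at 18607251 to 18871617 and 6718992 to 6980254 were 264 and 261 kb long. Among the upper 25% of scores there were 75 stretches of 100 kb or longer without a peak.

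Of the 5 large arms, 3R had the next to lowest covered share, above 2L and close to 3L. The covered share was 17.6% on 3R, against 15.1% on 2L, 17.9% on 3L, 20.7% on 2R and 21.1% on X. Median peak width was 845 bp on 3R, and 803, 790, 827 and 968 bp on 2L, 3L, 2R and X. The share of peaks of 5 kb or wider was 5.10% on 3R, against 4.31%, 4.35%, 5.57% and 7.67% on those arms. With a single list no test of these differences was made.

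The layout along the arms also varied. Spearman's rho of share and distance from the centromere end was -0.068 on 3R, against 0.41 on 2L, 0.098 on 3L, 0.14 on 2R and 0.20 on X. The stretch at the centromere end had 19.4% on 3R, against 12.8% on 2L, 16.8% on 3L, 15.6% on 2R and 14.8% on X. At the telomere end it was the other way round, with 15.4% on 3R against 20.5%, 23.9%, 23.3% and 23.8% on the same arms. The coefficient of variation between windows was 0.56 on 3R, against 0.72, 0.58, 0.60 and 0.65. For adjacent windows r was 0.11 on 3R, against 0.38, 0.26, 0.14 and 0.17. On 3R this r was -0.029 on the moved grid and 0.25 with windows of 500 kb, and the other arms were not computed in those settings. Windows under 5% made up 8.93% of the windows of 3R, against 21.7% on 2L, 10.9% on 3L, 16.5% on 2R and 11.1% on X. Of those windows, the stretch at the centromere end held 1 of 10 on 3R and 1 of 10 on 3L. It held 5 of 20 on 2L, 6 of 14 on 2R and 6 of 10 on X. The outermost window at that end had 19.7% on 3R and 21.8% on 3L, against 0.23%, 0.29% and 2.77% on 2L, 2R and X. Windows under 5% were not confined to that end: stretch 2 of 2L held 10 of 20, and stretch 4 of 2R held 6 of 14. Sparse ends enter rho, the coefficient of variation and the share of windows under 5%, but their weight in these was not tested. Whether the coordinates of the arms reach equally close to their centromeres was not tested.

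**Figure D5:**
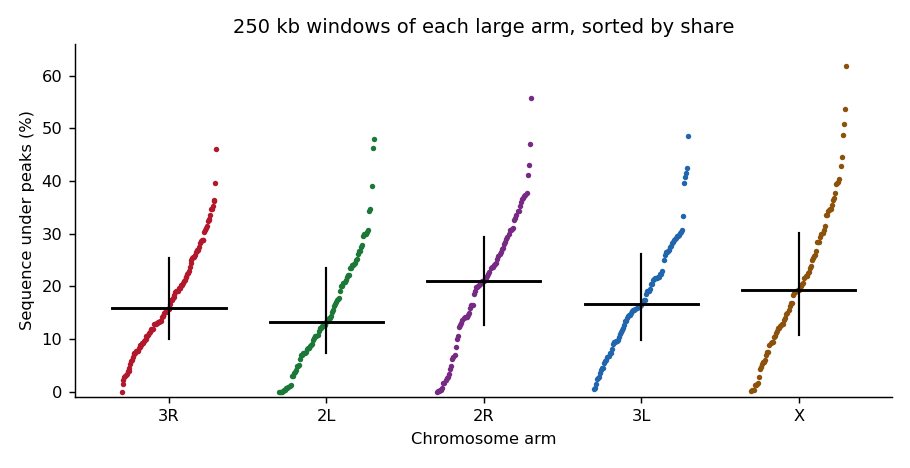
Share of sequence under peaks (%, y axis) in the windows of 250 kb of each large arm (x axis; 112 windows for 3R, and 92, 85, 92 and 90 for 2L, 2R, 3L and X), sorted from left to right within an arm. Horizontal lines are medians (15.8% on 3R, and 13.3%, 20.9%, 16.6% and 19.3% on the others) and vertical lines run between the quartiles; the ranges of all arms overlap.

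Close spacing of peaks was found on every large arm, and joined regions were longest in the median on X. Gaps of 1000 bp or less made up 61.1% of the gaps on 3R, against 60.3% on 2L, 60.5% on 3L, 61.0% on 2R and 63.9% on X. Joined regions had a median length of 2398 bp on 3R, against 2195, 2366, 2321 and 3328 bp. Gaps of 100 kb or longer numbered 1.76 per Mb on 3R, against 1.87 on 2L, 1.35 on 3L, 1.23 on 2R and 1.74 on X, and took up 29.7% of 3R, against 33.4%, 21.3%, 23.4% and 30.4%.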

How the data were processed

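The deposited data are 1 peak list for the 2 ChIP and 2 input samples. Per the file headers, positions are in FlyBase release 5 and peaks come from MACS; the submitters' processing notes name BWA and MACS2, the build BDGP5, and CASAVA in versions 1.7.0.3 and 1.7.0.2. How samples were combined, and with which settings and threshold peaks were called, is not given in the sources used here. The score is the value deposited by the authors for each peak, on a scale not stated. Other deposited values are the start and end of each peak. Starts were read as counted from 0 and widths are end minus start.

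From these, covered bases were counted per window of 250 kb from position 0, with a last window under 50% of that size left out; peaks were assigned to windows by midpoint. Peaks were joined at gaps of 1000 bp or less. Python 3.11.15, numpy 2.4.6, pandas 2.3.3 and scipy 1.17.1 were used, and the counting was tested on simulated data. The members, lists and settings were chosen with earlier results of these data known. Named by a fixed rule were the 8 richest and 8 poorest windows, the 5 highest-scoring and 5 widest peaks, the 5 longest joined regions and peak-free stretches, and the outermost peaks. Upper 50% and 25% of scores refer to the whole list (scores of at least 32.9 and 79.1). No test was made, since the list has no value per sample.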

Additional observations from a re-analysis of the deposited data

How the results depend on the processing

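No paired analysis was possible because the deposited list holds no value for single samples. Leaving out a replicate was not run for want of such values, and the limits set by depth are unknown. None of the values has an error, so each change is printed as it is. Of 51 alternative values 3 changed sign, and the cause was not tested. Covered shares, medians, coefficients of variation and counts cannot change sign. Only the correlations and the differences could, so 51 is not the number of values open to a reversal. The upper 50% and upper 25% of scores left a covered share of 14.7% and 10.2% of 3R, merging at 500 bp gave 18.8%, and peaks of 500 bp or wider gave 16.4%. The median window share was 17.2% with the grid moved by 50% of a window, 14.4% at 100 kb, 16.9% at 500 kb and 17.4% at 1 Mb. The coefficient of variation was 0.61, 0.85, 0.42 and 0.31 in the same settings, and 0.61 and 0.71 in the upper 50% and 25% of scores. Of the 11 richest windows, 5 overlapped one of the 11 richest of the moved grid. By number of peaks 5 of the 11 richest were kept, and in the upper 25% of scores 10 were. Of the 11 poorest, 3 overlapped one of the 11 poorest of the moved grid. By number of peaks 8 of the 11 poorest were kept, and in the upper 25% of scores 5 were.

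Spearman's correlation of covered share with window position, -0.068 as reported, was -0.091 on the moved grid, -0.034 at 100 kb, -0.085 at 500 kb, -0.082 at 1 Mb, -0.12 by number of peaks, -0.055 and -0.029 in the upper 50% and 25% of scores, and -0.058 without 4 windows at each end. The nearest 5 Mb minus the rest was 0.25 and -0.19 points in those score limits (a reversal in the second), 2.49 for 2 Mb and 1.11 for 10 Mb. Joining at 5000 bp left 688 regions and the upper 25% left 544, with 75 stretches of 100 kb or longer. For adjacent windows, r was -0.029 on the moved grid and -0.0038 at 1 Mb, both reversed, and 0.12 and 0.25 at 100 and 500 kb. In the upper 50% and 25% of scores, 3R minus 2L was 2.12 and 1.47 points, 3R minus 2R -2.70 and -2.25, 3R minus 3L -0.029 and -0.24, and 3R minus X -3.73 and -4.35.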
